A study of Macaca mulatta with 6 samples.

Results

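Chromosome 5 of the rhesus macaque (Macaca mulatta) is described here through every CpG position that the deposited methylation table lists on it. A CpG is a cytosine followed by a guanine, the site at which DNA of mammalian cells carries most of its methylation. The members were all lines of the table with chr5 in the first column, and there were 1369246 of them, 5.08% of the 26958235 positions listed in all and 5.31% of those on the 20 autosomes. The first lay at base 58 and the last at base 182086929. Chromosome 5 was chosen for description because it had the fewest listed CpGs per kb of any autosome, so that place in the order is not a finding.

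The series sampled blood mononuclear cells, the lymphocytes and monocytes separated on a Ficoll gradient, from 6 adult female macaques. The labels put 3 animals at rank 1 (high social rank) and 3 at rank 5 (low social rank), and give no treatment. The 12 columns of values that follow the positions are unnamed, and nothing ties them to an animal or a rank group. They were not used, so no methylation level is given and the rank groups are not compared. The marker genes of mononuclear cells could not be checked, since the positions hold no expression values. All counts below are full counts of what the table lists, without replicates or sampling error. The sources used here do not give the genome build of the coordinates, and no position was assigned to a gene.

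As background, methylated cytosines tend to mutate to thymine over evolutionary time, which has left mammalian genomes poor in CpGs. CpG islands, short stretches that stay rich in CpGs and are mostly unmethylated, often mark gene starts. Between them lie long CpG-poor regions that in most tissues are largely methylated. In the usual numbering, macaque chromosome 5 is the counterpart of human chromosome 4, which is known for its AT-rich and gene-poor sequence. No result below rests on that correspondence.

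The listed CpGs of chromosome 5 numbered 7.52 per kb of its span. The 19 other autosomes together had 9.67 per kb, so the ratio was 0.778. The nearest autosomes in density were chromosome 2 at 8.18 per kb, chromosome 12 at 8.40 and chromosome 6 at 8.42. Long intervals between CpGs differed with the length considered. Spacings above 1000 bases made up 0.668% of all spacings, the highest share of the 20 autosomes, against 0.390% on the others pooled. Chromosome 5 nevertheless had the smallest share of 1 kb tiles without a listed CpG of any autosome, 3.40%, against 6.34% on the others pooled. This was nearly a tie, since chromosomes 2, 4 and 11 had 3.42%, 3.43% and 3.48%. In the pool, chromosomes 19 and 20 had the highest shares, 22.2% and 19.1%. Long intervals add to the share of tiles without a CpG. On the other autosomes, 1820 intervals of at least 10 kb between neighbouring CpGs took up 111 Mb of 2528 Mb. Tiles without a CpG were not counted apart from such intervals, so their part in the smaller share on chromosome 5 was not tested. Chromosome 5 had 87 such intervals, which added up to 2.34 Mb of 182 Mb. The 3 longest of them spanned 118 kb from base 143757774 to 143875780, 103 kb from base 99584042 to 99687000, and 102 kb from base 55483934 to 55585931. Whether these hold sequenced bases is not known.

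Along the chromosome, the density was high at both ends and low, with separate peaks, between them. The first 1 Mb window held 20.1 CpGs per kb, the second 18.9 and the third 17.4, and these were the densest of the 182 windows that lay whole within the span. The next windows held 11.5, 12.6, 8.42 and 7.46, so the dense start was 5 Mb long. At the other end, all 8 windows from base 174000001 to 182000000 held between 9.82 and 14.0 CpGs per kb. The next densest windows of the chromosome lay there, at 14.0 from base 178000001 to 179000000 and at 13.3 from base 176000001 to 177000000.

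**Figure D1:**
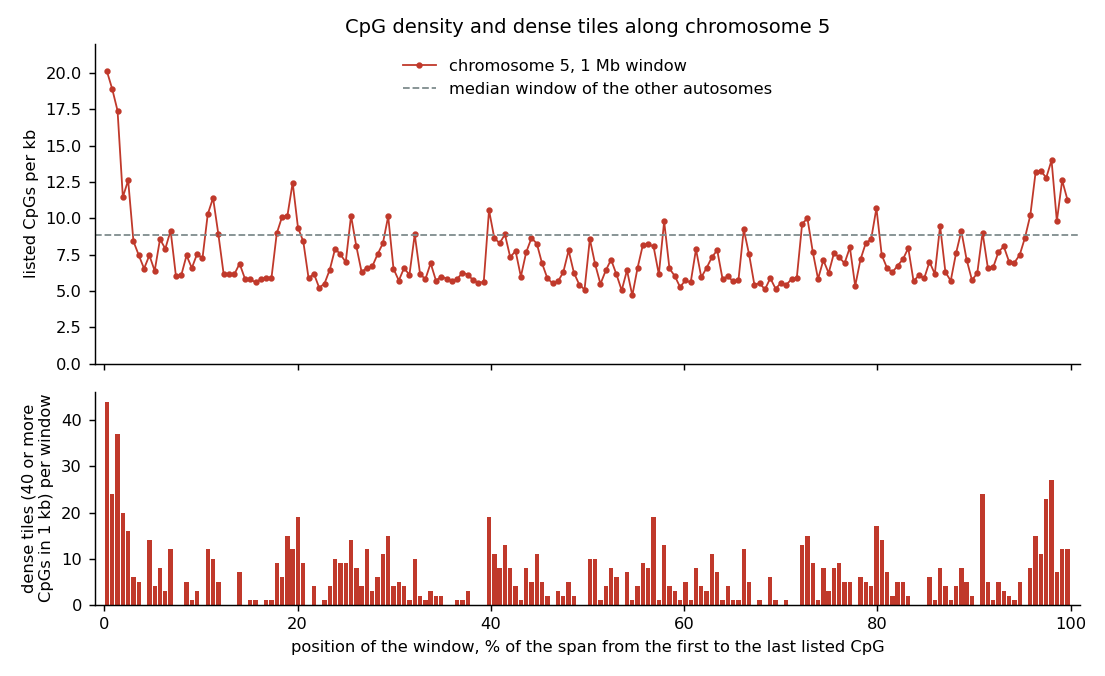
Listed CpGs per kb (top) and number of dense tiles, 1 kb tiles with 40 or more CpGs (bottom), in each of the 182 whole 1 Mb windows of chromosome 5, by position as a percentage of the span. The dashed line is the median window of the 19 other autosomes, 8.84 per kb. The windows fall from 20.1 at the start to under 9 within 6 Mb, most interior windows lie below the line, and the last 8 lie above it.

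The ends of chromosome 5 exceeded its interior by about as much as on the other autosomes pooled, though from a lower level. Its first 10 Mb held 11.7 CpGs per kb and its last 10 Mb held 11.4, against 7.02 in the interior. These are 1.66 and 1.62 times the interior. Over the other autosomes the same ratios were 1.65 and 1.66, from 14.5 and 14.6 per kb at the ends and 8.80 in the interior. Single autosomes varied widely, from 0.749 (chromosome 12) to 2.48 (chromosome 14) times the interior in the first 10 Mb. In the last 10 Mb they ranged from 1.14 (chromosome 1) to 2.01 (chromosome 12). On chromosome 2 the first 10 Mb were also less dense than the interior, at 7.13 against 8.07. The interior of chromosome 5 was the sparsest of the 20, below chromosome 17 at 7.43.

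The interior was not uniform. In segments of 10 Mb, the lowest mean was 5.99 CpGs per kb, from base 60000001 to 70000000, where no window exceeded 6.92. Next came the segment from base 120000001 to 130000000 at 6.07 and that from base 90000001 to 100000000 at 6.19. The densest interior segment, from base 30000001 to 40000000, reached 8.33, and its windows ranged from 5.87 to 12.5. Of the 3 sparse segments, the first named held 13 dense tiles and the second 26, against 76 in the segment from base 30000001 to 40000000. The third, from base 90000001 to 100000000, held 47, more than the 44 of the denser segment from base 10000001 to 20000000, at 7.69 CpGs per kb. In total 22 windows had 10 or more CpGs per kb, of which 12 lay in the first or last 10 windows and 10 elsewhere.

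The 5 sparsest windows all lay between bases 90000001 and 127000000. They held 4.70 CpGs per kb (base 99000001 to 100000000), 5.05 (base 97000001 to 98000000), 5.10 (base 90000001 to 91000000), 5.11 (base 124000001 to 125000000) and 5.16 (base 126000001 to 127000000). The first of these also contains the 103 kb interval without a listed CpG. Counted per tile with a listed CpG, it held 5.46 and was 5th from the sparsest, and the window from base 90000001 was the lowest, at 5.30. The longest series of windows under 6 CpGs per kb ran through 9 windows, from base 122000001 to 131000000. Neighbouring windows of chromosome 5 were alike in density, with r = 0.73 over the 181 pairs, close to the 0.70 of chromosome 2 and the 0.75 of chromosome 6. Windows of 1 chromosome share their neighbourhood and are not replicates, so no test was made.

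Most windows of chromosome 5 fell below the typical window elsewhere. Of its 182 windows, 147 or 80.8% had fewer CpGs than the median window of the other autosomes, 8.84 per kb. By construction the background share is 49.9% of the 2451 windows of the other autosomes. Chromosome 2 followed with 71.4% and chromosome 17 with 68.1%. The deficit was nonetheless not the same at all levels of density. The sparsest windows of chromosome 5 were close to those elsewhere, with a 5th percentile of 5.44 CpGs per kb against 5.62, a ratio of 0.968. The ratio was 0.872 at the 25th percentile, 0.776 at the median, 0.703 at the 75th percentile and 0.668 at the 90th, where the values were 10.2 and 15.2. At the 95th percentile it was 0.702, with 12.4 and 17.7.

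**Figure D2:**
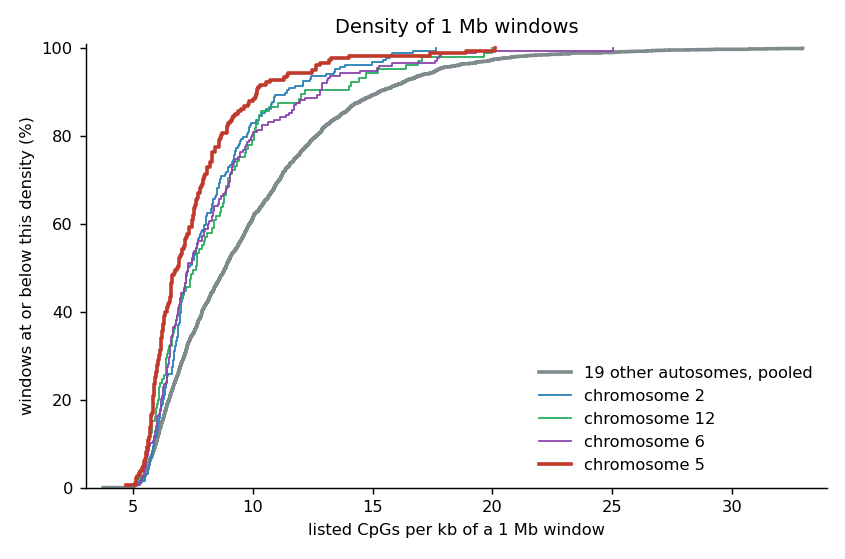
Cumulative share of 1 Mb windows (vertical, %) at or below a given number of listed CpGs per kb (horizontal) on chromosome 5, the 3 autosomes nearest to it in density, and the 19 other autosomes pooled. The curves start together near 5 per kb and separate above it, to medians of 6.86 on chromosome 5 and 8.84 on the others.

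Windows of 15 or more CpGs per kb made up 1.65% of its windows, 3 in number, against 10.5% elsewhere. Windows of 10 to 15 made up 10.4% against 27.9%. Windows under 6 made up 27.5% against 11.2%, and the corresponding share was 12.7% on chromosome 2, 19.05% on chromosome 12 and 16.3% on chromosome 6. The lowest window of any other autosome, 3.74 on chromosome 17, was below the 4.70 of chromosome 5. The longest series of windows below the median of the other autosomes was 29 on chromosome 5, from base 76000001 to 105000000, shorter than a series of 46 on chromosome 6.

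At the scale of 1 kb, the tiles of chromosome 5 were shifted to the sparse classes. Tiles with 1 to 4 CpGs made up 33.7% of its 175896 tiles with a listed CpG, against 24.03% on the other autosomes, where the highest share was 29.8% on chromosome 6. Tiles with 5 to 9 made up 42.0% against 37.2%. The 10 to 19 class fell short, at 19.03% against 27.6%, as did the 20 to 39 class, at 4.72% against 9.63%. Dense tiles, those of at least 40 CpGs, accounted for 0.625% against 1.58%. The ratio to the other autosomes thus went down from class to class, through 1.40, 1.13, 0.690, 0.490 and 0.396. Chromosome 5 was at the extreme of the 20 autosomes in each of the 5 classes, and nearly tied with chromosome 2 in the 5 to 9 class, where that chromosome had 41.9%. The choice of chromosome 5 for its low density largely sets this shift to sparse classes, so these extremes are no independent result.

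**Figure D3:**
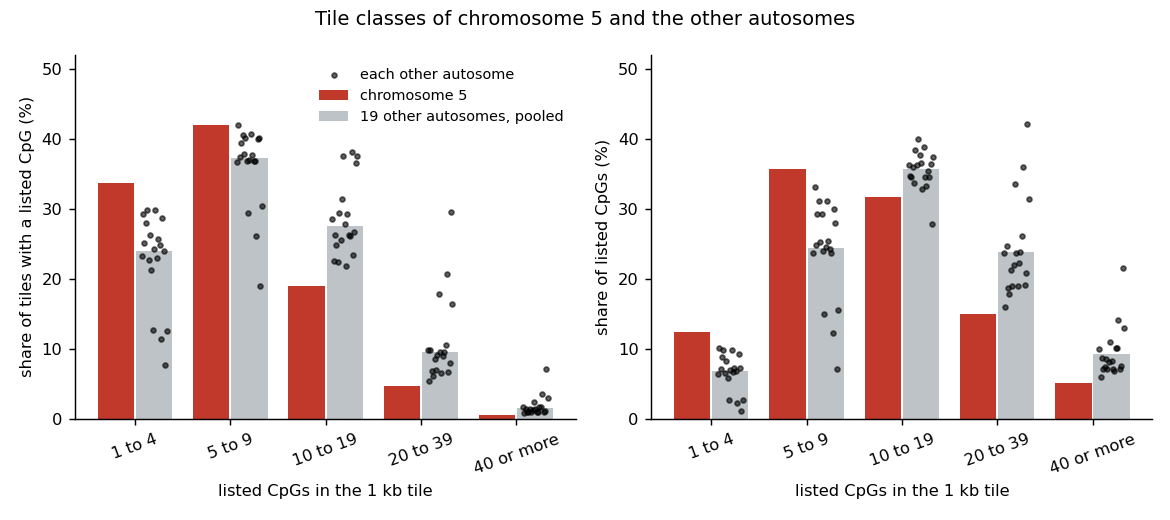
Share of 1 kb tiles with a listed CpG (left) and share of listed CpGs (right), both in %, by number of CpGs in the tile. Bars stand for chromosome 5 and for the 19 other autosomes pooled, and each point is 1 of those autosomes. Sparse tiles hold more of chromosome 5, with 33.7% of its tiles in the lowest class against 24.03%, and its bars are lower from the 10 to 19 class upward in both panels.

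In absolute numbers, the missing CpGs came mainly from tiles of middle density. Per 1000 tiles of span, chromosome 5 held 7520 CpGs and the others held 9668, a difference of -2148. Tiles of 20 to 39 CpGs contributed -1175 to it, or 54.7%, and tiles of 10 to 19 contributed -1067, or 49.7%. Dense tiles contributed -512, or 23.8%. Tiles of 5 to 9 and of 1 to 4 CpGs went the other way, with 326 and 280 more CpGs on chromosome 5. The middle classes also hold many CpGs elsewhere. On the other autosomes, tiles of 10 to 19, 20 to 39 and 40 or more held 35.7%, 23.8% and 9.26% of listed CpGs. The ratios of CpGs per 1000 tiles in these classes were 0.691, 0.490 and 0.428, so dense tiles were the most reduced in relative terms. With dense tiles left out on both sides, chromosome 5 had 7.18 CpGs per tile against 8.90, a ratio of 0.806, and 7.18 was again the lowest of the autosomes.

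Sparse tiles also lay together more often. On chromosome 5, 19.02% of the tiles with 1 to 4 CpGs had such a tile on both sides, the highest share of the autosomes, against 17.9% on chromosomes 12 and 6 and 16.6% on chromosome 2. Having more such tiles raises this share by itself, and no correction was made. There were 41 unbroken series of 10 or more sparse tiles, 22.5 per 100 Mb, against 24.7 per 100 Mb on chromosome 6 and 16.3 on chromosome 2. The longest was 15 tiles, from base 40430001 to 40445000, and other autosomes had up to 17.

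Dense tiles were rare on chromosome 5, and as rich in CpGs as elsewhere. It held 1099 of them, 6.04 per 1000 tiles against 14.8 on the other autosomes, 0.409 times as many. Their mean content was 63.5 CpGs, the second highest of the 20 autosomes, against 60.6 on the others pooled and 63.8 on chromosome 13. Adjoining dense tiles formed 752 groups, of which 65.2% were single tiles, 26.7% pairs and 8.11% of 3 or more, against 66.4%, 25.4% and 8.16% elsewhere. Their number varied widely along the chromosome. The first 3 windows held 105 dense tiles, 9.63% of those in 1.65% of the windows. By contrast 31 windows, or 17.0%, held none, where the background on the other autosomes was 8.45%. Chromosome 17 had the same share to 3 digits, 17.0%. The 39 windows of 182 with 10 or more dense tiles held 56.8% of all dense tiles in windows. Picking windows by that number raises this share by itself, and it was not computed for the other autosomes.

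The richest tile, from base 2741001 to 2742000 in the dense start of the chromosome, held 165 CpGs, with no spacing above 17 bases and a median spacing of 7. The tile before it held 127 and the tile after it 33. The next 4 lay in the interior, with 143 CpGs from base 80973001 to 80974000, 140 from base 21631001 to 21632000, 134 from base 120395001 to 120396000 and 132 from base 137375001 to 137376000. Outside the ends, the window with the most dense tiles ran from base 165000001 to 166000000, with 24 at 9.02 CpGs per kb. The window from base 173000001 to 174000000 had no dense tile at 8.68 CpGs per kb, the highest density of the 31 such windows, whose median was 5.82. Both windows were picked out after their values were seen.

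Runs of closely spaced CpGs gave the same picture as dense tiles, which follows in large part from their similar definitions on the same positions. A run was at least 40 CpGs in a row with no spacing above 50 bases. Chromosome 5 had 620 runs, 3.40 per Mb against 7.37 on the other autosomes. Their size was ordinary, with a median of 66 CpGs and 732 bases against 67 CpGs and 742 bases, and 23.9% held 100 or more CpGs against 22.8%. The largest held 289 CpGs in 1570 bases, from base 2740514 to 2742083, around the richest tile, and 26 runs on other autosomes were larger. The second, from base 175619684 to 175622450, held 268, and the third, from base 140654402 to 140656447, held 242. The fourth, from base 94314868 to 94317279, held 234, and the fifth, from base 72466803 to 72468946, held 218.

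The runs were far apart. The median distance from one run to the next was 104455 bases on chromosome 5 and 36904 bases on the other autosomes. Intervals of more than 1 Mb without a run numbered 47 and covered 49.5% of the span, the largest share of any autosome, against 48.3% on chromosome 17 and 31.0% over the others pooled. The longest interval, 4.88 Mb from base 126595764 to 131471903, covered the later part of the series of 9 windows under 6 CpGs per kb and ended beyond it. The first 5 Mb of the 182 Mb held 54 runs, or 8.71% of them. That stretch was also denser in CpGs, at 16.1 per kb against 7.52 on the whole chromosome.

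CpG content fell off steeply beside the dense tiles of chromosome 5. Tiles that were not dense themselves held a mean of 18.1 CpGs at 1 kb from a dense tile, 12.5 at 2 kb, 10.8 at 3 kb and 10.2 at 5 kb. On the other autosomes the means were 20.3, 16.2, 15.1 and 14.6. From 1 to 5 kb the mean therefore fell by 43.5% on chromosome 5, compared with 27.9% on the others pooled, 38.7% on chromosome 2, 34.1% on chromosome 12 and 33.7% on chromosome 6. The ratio of chromosome 5 to the others was 0.894 at 1 kb, 0.699 at 5 kb and 0.685 at 100 kb. At 100 kb, the mean of 9.12 was 1.27 times that of all its tiles that were not dense, 7.18. The same ratio was higher on the others pooled, at 1.49, and on chromosomes 2, 12 and 6, at 1.30, 1.43 and 1.42. At 1 kb it was 2.53 on chromosome 5 and 2.28 on the others pooled. Tiles close to several dense tiles were counted once at each distance, and dense tiles of 1 chromosome are not replicates.

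**Figure D4:**
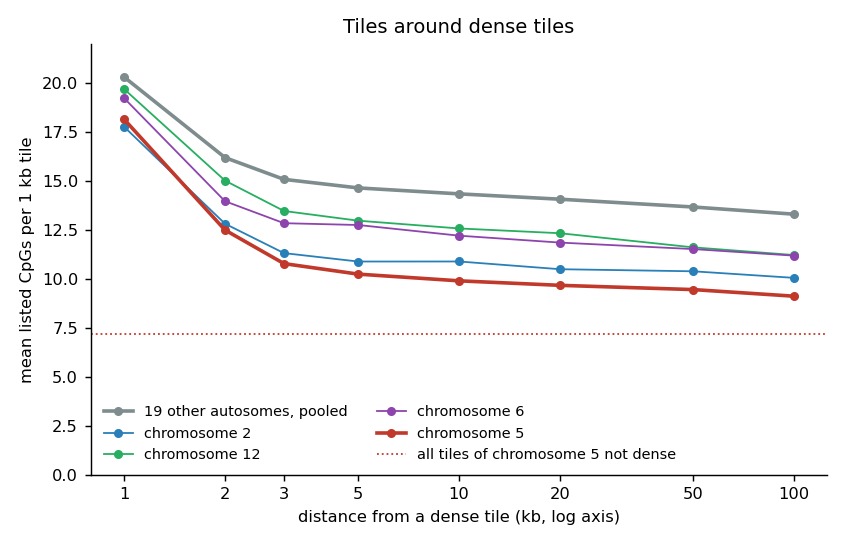
Mean number of listed CpGs in 1 kb tiles that are not dense (vertical), by distance in kb from a dense tile on either side (horizontal, log axis), for chromosome 5, the 3 autosomes nearest in density and the 19 others pooled. On chromosome 5 the mean falls from 18.1 at 1 kb to 10.2 at 5 kb and stays above the dotted line, 7.18, the mean of all its tiles that are not dense.

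The scarcity of dense tiles went with a sparse background. Windows were classed by their CpGs per kb outside dense tiles, and dense tiles per window were compared within each class. This background includes the tiles beside dense tiles. On chromosome 5 these held a mean of 18.1 CpGs at 1 kb, against 7.18 over all its tiles that were not dense. Dense tiles thus raise the background of their own window, and the classes are not independent of them. Below 6 CpGs per kb, the 56 windows of chromosome 5 had a mean of 1.48 dense tiles against 1.77 in 338 windows elsewhere. From 6 to 7 the means were 4.22 and 3.94, from 7 to 8 they were 7.28 and 6.63, from 8 to 9 they were 8.93 and 8.70, and from 9 to 11 they were 12.7 and 13.7. Only in the open class of 11 or more were they far apart, at 22.1 in 10 windows and 38.2 in 607, and that class reaches much higher densities on other autosomes. At the class means of the other autosomes, the windows of chromosome 5 would hold 1242 dense tiles, and they held 1090, a ratio of 0.878. Without the open class, an alternative added after the values were seen, the ratio was 1.01. With the full set of classes, chromosome 5 was 8th from the lowest of the 20 autosomes in this ratio, and chromosome 13, at 0.645, was the lowest. Across windows, background density and dense tiles were related on chromosome 5 with a Spearman's rho of 0.77 (182 windows) and elsewhere with 0.82 (2451 windows). These values are a description only, since windows share neighbours and the background includes the surroundings of dense tiles.

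**Figure D5:**
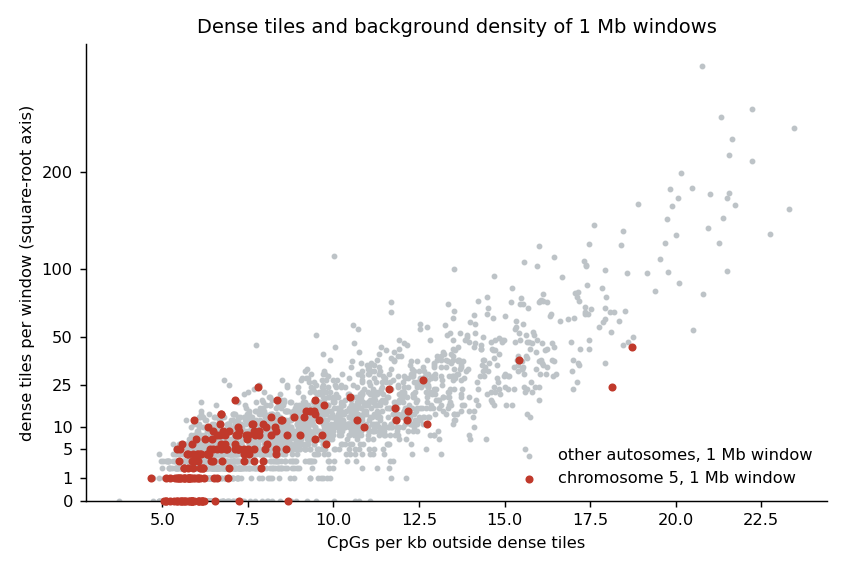
Number of dense tiles per 1 Mb window (vertical, square-root axis) against CpGs per kb outside dense tiles (horizontal), for the 182 windows of chromosome 5 and the 2451 windows of the other autosomes. The windows of chromosome 5 lie within the cloud of the others, crowded at its sparse end, with 110 of 182 below 7 CpGs per kb.

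Spacing between neighbouring CpGs was wider on chromosome 5 than on any other autosome, with a median of 58 bases against 40 on the others pooled and 52 on chromosome 2. Chromosome 5 was chosen for its low density, which largely sets wide spacing, so this place in the order is not a finding. The share of spacings up to 10 bases was 15.9% against 20.002%. The shares were alike for spacings of 51 to 100 bases, at 16.1% and 16.2%. Spacings of 251 to 500 bases made up 11.03% against 7.53%, and those above 500 bases made up 4.89% against 2.87%. Within a tile class the medians were close to those of the other autosomes. The number of CpGs in a tile largely sets the spacing inside it, so this closeness follows in large part from the classes. Between CpGs of the same tile, the median was 172 against 169 bases in tiles of 1 to 4 CpGs, 84 against 82 in tiles of 5 to 9, 38 against 39 in tiles of 10 to 19, 20 in both for tiles of 20 to 39, and 8 against 9 in dense tiles. The share of these spacings up to 10 bases was higher on chromosome 5 from the 10 to 19 class upward. It was 18.04% against 17.3%, 34.5% against 31.6%, and 58.0% against 55.7% in dense tiles. In tiles of 1 to 4 and of 5 to 9 CpGs it was lower, at 3.58% against 3.77% and 7.80% against 8.09%.

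Spacings that stand out over the whole table did so on chromosome 5 as well. CpGs 8 bases apart were counted 33052 times. This was 1.75 times the median count at neighbouring spacings, and the same ratio was 1.60 on the other autosomes. That of 4 bases was 1.66 times its neighbours against 1.56, that of 24 bases 1.47 against 1.46, and that of 38 bases 1.43 against 1.45. Among recurring orders of 5 spacings, 4, 5, 38, 2 and 4 bases occurred 1387 times on chromosome 5 in either direction, and 24, 20, 4, 8 and 4 bases 803 times. Per Mb these were 0.712 and 0.731 times as frequent as on the other autosomes, and per CpG 0.915 and 0.939 times. By the number per CpG, chromosome 5 was thus 7th and 9th from the lowest of the 20 autosomes, while per Mb it was second from the lowest, after chromosome 8, in both. The longest series of identical spacings was 15 spacings of 23 bases, from base 1269962 to 1270307, in the second densest window. Other autosomes had longest series of 11 to 48.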

How the data were processed

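The authors deposited 1 headerless table for the series. Its first 3 columns hold a chromosome and the start and end of a cytosine, as position values in bases (unit: other), and 12 unnamed columns follow, which were not used. The submitters' processing notes name Bismark, which aligns bisulfite reads and calls methylation. The sources used here give neither its version nor the genome build nor a filter on sites, so the listed CpGs may be a selection. Depth per animal was not used here.

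Positions were read at any white space and are printed 1-based. Tiles of 1 kb cover the span between the outermost listed CpGs. Windows of 1 Mb start at base 1, lie whole within the span and hold at least 500 tiles with a listed CpG. Ends are 10 Mb. No test was run, since chromosomes and windows are not replicates. Named were the 5 densest and 5 sparsest windows, the 5 richest tiles and runs, the 3 longest intervals, and autosomes nearest or extreme. The members, classes and measures were chosen with earlier results of these data known. Python 3.11.15, numpy 2.4.6 and pandas 2.3.3 were used. On simulated positions, 21 of 21 planted values were recovered.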

Additional observations from a re-analysis of the deposited data

How the results depend on the processing

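Under every alternative run, chromosome 5 stayed below the other autosomes pooled in density, dense tiles, runs and tiles 5 kb from dense tiles, while the size of each value moved. Chromosome 5 was chosen for its low density, so the direction of these ratios was largely set by that choice and is no independent support. Which CpGs the table lists may depend on filters that are not known, and this was not tested. The density of 7.52 per kb was 7.78 per tile with a listed CpG and 7.62 without intervals of 10 kb or more. Its ratio to the other autosomes, 0.778, was 0.803 against their median, 0.788 without chromosome 19, 0.754 per tile with a listed CpG, 0.806 without dense tiles and 0.798 without the ends of all autosomes. Dense tiles per 1000, 6.04, were 11.4 in 500 base tiles with 20 or more CpGs, 2.33 in 5 kb tiles with 200 or more, 12.6 with a limit of 30 CpGs and 4.07 with 50. The ratio of 0.409 was 0.494, 0.338, 0.378 and 0.462 in the same settings, 0.408 with tiles shifted by 500 bases and 0.472 without the ends of all autosomes. The share of tiles in the sparsest class, 33.7%, was 39.4% in 500 base tiles and 25.9% in 5 kb tiles, and its ratio of 1.40 was 1.32 and 1.58 there and 1.41 in shifted tiles. The coefficient of variation of the windows, 0.314, was 0.327 in 500 kb windows, 0.294 in 2 Mb windows and 0.2503 without the first 10 Mb. The first 5 and 20 Mb had 16.1 and 9.68 CpGs per kb, and the last 5 and 20 Mb had 12.1 and 9.24. Runs per Mb, 3.40, were 5.37 with CpGs up to 100 bases apart and 18.99 with at least 20 CpGs, and the ratio of 0.462 was 0.391 and 0.568. Without the dense tiles of the first 10 Mb, tiles at 5 kb had a mean of 9.15 CpGs and a ratio of 0.677 in place of 0.699. The median spacing was 64 bases outside dense tiles. The ratio of dense tiles at matched background, 0.878, was 0.909 with classes 1 CpG per kb wide and turned to 1.01 without the class of 11 or more, so its direction depends on that class. The share of windows below the median of the others stayed within 78.0% and 83.5% in its 4 alternatives. Both alternatives without the ends of all autosomes and both on matched background were added after seeing the data. No paired analysis was possible because the value columns are unnamed.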
